A study of Mus musculus with 6 samples.

Results

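Fibroblast growth factors (FGFs) and their receptors were measured in cultures labelled as mouse skin endothelial cells (ECs), kept in normal or high glucose. The genes were chosen as a fixed list of 10, comprising the ligands Fgf1, Fgf2, Fgf7, Fgf10, Fgf18 and Fgf21 and the receptors Fgfr1, Fgfr2, Fgfr3 and Fgfrl1. All 10 were found among the 55487 gene identifiers of the deposited count table, and all 10 passed the filter on low counts that left 19015 tested genes. Bulk RNA sequencing covered 6 cultures of C57BL/6 cells, 3 in 5 mmol/L glucose (normal glucose) and 3 in 20 mmol/L glucose (high glucose), each treated for 48 hours. The cells were prepared from the skin of 4 to 6 mice aged 2 to 3 months with CD31 microbeads, so animals were pooled within a preparation. The labels give no engineered allele and no other agent for either group. The study counts its replicates as mice, whereas the labels describe pooled animals and do not say whether replicates were separate preparations. P values measure the spread between these samples, which may be technical if they were not.

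FGFs are secreted proteins that bind receptor tyrosine kinases together with heparan sulfate chains on the cell surface. Ligand binding brings receptors together, and the adaptor FRS2 then links them to RAS, the ERK kinases and PI3K. In skin, FGF7 and FGF10 are made by dermal fibroblasts and act on the epithelial splice form of FGFR2, whereas FGF1 and FGF2, which lack a classical secretion signal, act widely and include ECs among their targets. FGF21 belongs to the hormone-like branch, which needs a Klotho co-receptor in place of strong heparan sulfate binding. FGFRL1 binds ligand but lacks the tyrosine kinase domain of the other receptors. Counts per gene do not separate splice forms, so the epithelial and mesenchymal forms of Fgfr2 could not be told apart.

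The labelled cell type was compared with marker genes before the FGF genes were described. Endothelial markers differed in level, and several were close to 0. Pecam1, which encodes CD31, had between 9 and 19 counts per sample in libraries of 120192466 to 146881356 counts. Cldn5 had at most 4 and Sox17 had 0 in every sample. Others were well above these, with 4457 to 8030 counts for Flt1 and 1113 to 1464 for Egfl7. Plvap had 586 to 833, Kdr 576 to 777 and Cdh5 91 to 242. Eng, which is not restricted to ECs, had 15854 to 22307. Levels are given as CPM, the count relative to the library total after scaling by the trimmed mean of M values (TMM). The 18 endothelial markers summed to 220.6 to 247.9 CPM under normal glucose and 200.6 to 205.9 under high glucose. Of 12 tested markers, 3 were higher (Tek, Erg and Plvap) and 3 lower (Cdh5, Flt1 and Egfl7). Among all 19015 tested genes, 16.9% were called higher and 14.5% lower. The 12 fibroblast markers summed to 38720 to 41900 CPM under normal glucose and 71100 to 76050 under high glucose, with 10 higher and 2 lower. The data therefore went against an endothelial label for most of the RNA, and the samples are called cultures below. The 11 keratinocyte markers summed to 4.28 to 5.16 and 4.75 to 5.13 CPM in the respective groups, and 4 of them never exceeded 3 counts. Krt5 and Krt14 had 0 to 2 counts under normal glucose and 9 to 35 under high glucose. Of the 4 keratinocyte markers tested, Krt5 was higher and the other 3, Krt10, Trp63 and Dsp, did not pass. The means of Krt10 and Dsp were lower under high glucose. The 8 mural markers summed to 514.8 to 610.3 CPM under normal glucose and 569.9 to 617.5 under high glucose. Of these, Pdgfrb had means of 546.3 and 577.8 CPM. Of 6 mural markers tested, 2 were higher and 1 lower. The 6 adipocyte markers summed to 240.1 to 291.8 and 278.8 to 318.0 CPM, with 3 of 5 tested higher and 0 lower. The part of these cell types in the FGF results was not tested. In bulk RNA, fewer cells of a type and less RNA per cell cannot be told apart.

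Promoter sequences are shown for 4 genes whose mRNA behaved differently in these cultures. Fgfrl1 and Fgf18 rose, Fgf21 fell, and Fgf7 was the most abundant ligand without a detectable difference. Each is the stretch of 250 bases before the RefSeq start on GRCm38.p6, written 5′ to 3′ on the strand of the gene and lying outside the annotated exons of that gene. Capitals mark matches to the motifs searched. Fgfrl1 also has annotated transcripts that begin further upstream.
Fgfrl1 (chr5:108693979-108694228, plus strand): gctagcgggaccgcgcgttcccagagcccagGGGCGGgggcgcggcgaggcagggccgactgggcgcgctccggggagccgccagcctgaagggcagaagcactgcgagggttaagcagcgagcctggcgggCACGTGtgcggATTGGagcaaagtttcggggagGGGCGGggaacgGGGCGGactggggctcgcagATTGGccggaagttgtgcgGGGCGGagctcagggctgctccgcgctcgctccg
Fgf18 (chr11:33147401-33147650, minus strand): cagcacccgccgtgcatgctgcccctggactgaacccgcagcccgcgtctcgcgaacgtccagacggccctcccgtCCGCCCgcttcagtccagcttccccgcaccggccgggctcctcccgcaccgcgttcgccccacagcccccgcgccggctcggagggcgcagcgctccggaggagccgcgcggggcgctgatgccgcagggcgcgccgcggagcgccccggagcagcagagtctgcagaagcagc
Fgf21 (chr7:45615491-45615740, minus strand): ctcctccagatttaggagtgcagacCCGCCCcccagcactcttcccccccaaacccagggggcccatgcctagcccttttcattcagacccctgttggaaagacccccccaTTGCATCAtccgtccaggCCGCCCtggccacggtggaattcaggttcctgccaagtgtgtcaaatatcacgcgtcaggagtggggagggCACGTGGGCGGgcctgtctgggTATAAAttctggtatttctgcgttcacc
Fgf7 (chr2:126034408-126034657, plus strand): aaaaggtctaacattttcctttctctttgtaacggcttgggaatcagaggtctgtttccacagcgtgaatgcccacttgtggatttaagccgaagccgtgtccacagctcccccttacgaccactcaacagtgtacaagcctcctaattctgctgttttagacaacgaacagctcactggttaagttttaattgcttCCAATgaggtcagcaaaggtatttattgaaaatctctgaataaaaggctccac

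The motifs were searched on both strands. They were the E-box CACGTG, whose core is bound in pairs by the glucose-responsive factors MondoA and ChREBP and also by other factors, the amino acid response element TGATGCAA bound by ATF4 with C/EBP partners, the GC box GGGCGG, the TATA box TATAAA, the CCAAT box CCAAT, the cAMP response element TGACGTCA and the AP-1 element TGACTCA. The E-box was found once in the promoter of Fgfrl1, at position -118 from the start, and once in that of Fgf21, at position -50. Neither window held a pair of exact matches, and the mRNA of Fgfrl1 rose while that of Fgf21 fell. Of all 32851 promoter windows of this length in the table, 6.02% held this E-box. Fgf21 alone of the 8 listed genes whose windows were searched carried the amino acid response element, at position -139, which 0.791% of all windows hold. It alone of these 8 also carried the TATA box, at position -28, which 12.4% hold. Its E-box and the GC box that follows share 1 letter. GC boxes, present in 32.7% of all windows, occurred 4 times in Fgfrl1, 3 times in Fgf21 and once in Fgf18, where no other motif searched was found. Fgf7 held only a CCAAT box, a motif present in 33.9% of windows and also in Fgfrl1, and its GC content was 43.6% against 77.2% in Fgf18, 73.6% in Fgfrl1 and a median of 52.4% over all windows. These matches describe letters and not bound sites, since binding was not measured here.

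At an adjusted P value under 0.05 from the quasi-likelihood test in edgeR, 4 of the 10 listed genes were higher under high glucose (Fgf2, Fgf18, Fgfr2 and Fgfrl1) and 2 were lower (Fgf1 and Fgf21). Fgf7, Fgf10, Fgfr1 and Fgfr3 did not pass. Over all 19015 tested genes, 16.9% were called higher, 14.5% lower and 31.4% in either direction. The median log2 fold change of the 10 genes was 0.074 against 0.0062 over all tested genes, and for 8 of the 10 every CPM value of one group lay beyond those of the other, against 46.4% of all tested genes. The 4 genes called higher were called in that direction in all 18 alternative analyses, while Fgf21 and Fgfr3 moved across the threshold in some of them.

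**Figure D1:**
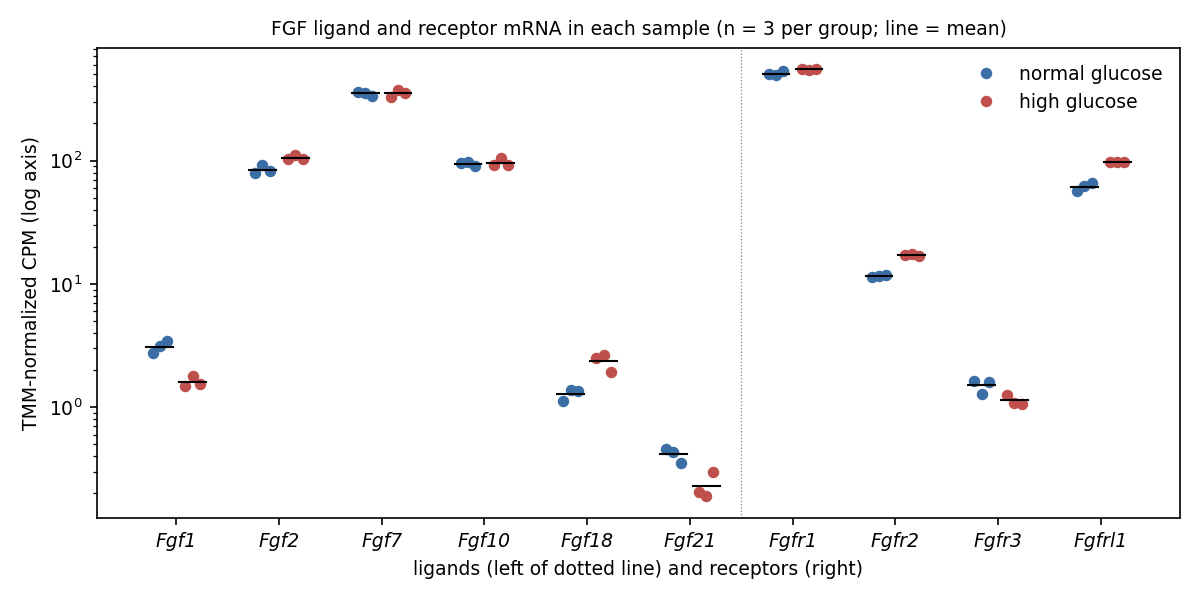
TMM-normalized CPM on a logarithmic axis for the 6 ligands and 4 receptors, with a point for each of 3 normal glucose and 3 high glucose samples and a line at the group mean. The groups overlap for Fgf7 and Fgf10 and separate for the other 8 genes, by the widest ratio of means for Fgf1.

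**Figure D2:**
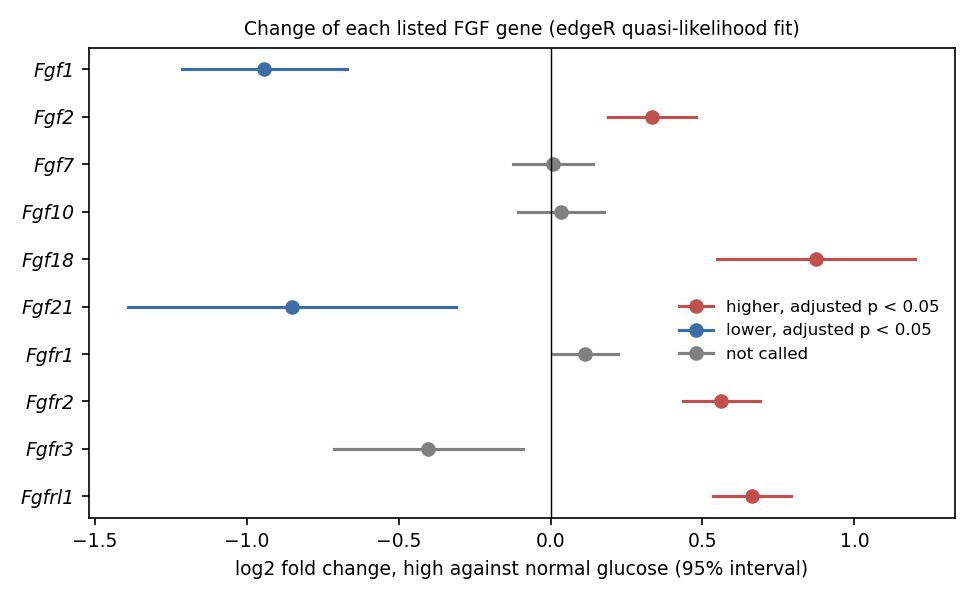
Log2 fold change of each listed gene, high against normal glucose, with its 95% interval from the edgeR fit, coloured by whether the gene passed an adjusted P value of 0.05. The intervals of Fgf7 and Fgf10 include 0, and those of Fgfr1 and Fgfr3 lie on one side of 0 although neither gene passed after adjustment over all genes.

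Levels of different genes were compared per kb of exon, as TMM-normalized CPM divided by the length of the union of annotated exons. In normal glucose the order was Fgf7 (107.8 CPM per kb), Fgfr1 (51.4), Fgfrl1 (22.1), Fgf10 (20.5), Fgf2 (12.4), Fgfr2 (1.12), Fgf18 (1.09), Fgf1 (0.568), Fgf21 (0.439) and Fgfr3 (0.210). Fgfrl1 and Fgf10 overlapped between samples, as did Fgfr2 and Fgf18. In high glucose Fgfrl1, at 34.98 CPM per kb, lay above Fgf10, at 21.0, without overlap, and Fgf18 (1.995) and Fgfr2 (1.66) still overlapped but in the reverse order of means. Fgf1 (0.296) and Fgf21 (0.242) overlapped under high glucose.

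Among the paracrine ligands made by mesenchymal cells, Fgf7 and Fgf10 were abundant and showed no detectable difference. Fgf7, also known as keratinocyte growth factor, lies on chromosome 2 from 126034658 to 126091185 of GRCm38 on the plus strand. It had 359.7, 354.5 and 336.2 CPM under normal glucose replicates 1, 2 and 3 and 329.5, 371.4 and 355.4 under high glucose. The groups overlapped throughout. Its log2 fold change was 0.0080 with a 95% interval of -0.12 to 0.14 (adjusted P = 0.934), and its sign was negative under several scalings. Fgf10, which drives outgrowth of epithelial buds, lies on chromosome 13 from 118669791 to 118792115 on the plus strand. It had 95.4, 97.3 and 89.6 CPM under normal glucose and 92.7, 104.4 and 92.1 under high glucose. The highest and the lowest of these 6 values belonged to high glucose replicate 2 and normal glucose replicate 3, and the other 4 lay between. The interval of its log2 fold change was -0.11 to 0.17 around 0.034 (adjusted P = 0.722), with a negative sign under library size and upper quartile scaling. A change of either ligand by as much as that of Fgf2 lay outside these intervals.

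The ligands without a classical secretion signal moved in opposite directions. Fgf2, or basic FGF, an EC and fibroblast mitogen, lies on chromosome 3 from 37348346 to 37410108 on the plus strand. It had 78.6, 91.4 and 81.6 CPM under normal glucose and 103.5, 110.7 and 103.0 under high glucose. Every high glucose sample was above every normal glucose sample, and replicate 2 was the highest of both groups. Fgf2 rose by 26.1%, a log2 fold change of 0.33 ± 0.066 (SE; adjusted P = 0.00326), with a range of 0.22 (library size scaling, adjusted P = 0.0282) to 0.39 over the alternatives. Its exons share 640 bp with Nudt6, which is transcribed from the other strand, and whether reads were assigned by strand is not given in the sources used here. Nudt6 had 191 to 351 counts per sample against 9837 to 14679 for Fgf2, and at its mean exon coverage the shared stretch would hold at most 0.926% of the Fgf2 counts.

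Fgf1, or acidic FGF, which binds all FGF receptor forms, lies on chromosome 18 from 38838673 to 38929472 on the minus strand. It had 346, 442 and 439 counts under normal glucose and 212, 210 and 209 under high glucose. These correspond to 3.10 ± 0.333 CPM and 1.62 ± 0.166 CPM (SD, n = 3), without overlap. Fgf1 fell by 47.9%, a log2 fold change of -0.94 ± 0.12 (SE; adjusted P = 0.000233). The fall was called in all 17 alternative fits, with log2 fold changes between -1.06 and -0.88. Genes for the release of leaderless FGFs were listed as well. Of 4 such genes tested, 2 were lower and none was higher, beside 14.5% lower among all tested genes, and a list of 4 is too short to set against that share. S100a13, which encodes a partner of FGF1 in its release, went from 41.05 ± 8.66 to 28.6 ± 1.13 CPM (SD, n = 3; adjusted P = 0.00770). Tec, which encodes a kinase that phosphorylates FGF2, lies below the level set for naming genes and was named after its values were seen. It had 54 to 75 counts under normal glucose and 27 to 32 under high glucose (log2 fold change -1.085, adjusted P = 0.00233).

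Fgf18, which signals mainly through FGFR3 and FGFR2 in cartilage and bone, showed the largest rise of the 10 genes. It lies on chromosome 11 from 33117430 to 33147400 on the minus strand. It had 140, 197 and 174 counts under normal glucose and 356, 308 and 262 under high glucose. On the CPM scale these were 1.12, 1.39 and 1.36 against 2.51, 2.65 and 1.94, so high glucose replicate 3 was the lowest of its group and still above every normal glucose sample. The change was 83.7%, a log2 fold change of 0.87 ± 0.15 (SE; adjusted P = 0.00126), and it lay between 0.76 and 0.98 over the alternatives.

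Fgf21, a fasting and stress hormone made mainly by liver, was near the lower end of what was measured. It lies on chromosome 7 from 45613886 to 45615490 on the minus strand. It had 58, 62 and 45 counts under normal glucose and 29, 22 and 40 under high glucose. On the CPM scale these were 0.463, 0.437 and 0.351 against 0.204, 0.189 and 0.297, and the groups did not overlap. The log2 fold change was -0.85 (standard error 0.24, adjusted P = 0.0226). The call rested on few reads and was lost without normal glucose replicate 2 (-0.83, adjusted P = 0.0532), high glucose replicate 1 (-0.78, adjusted P = 0.0800) or high glucose replicate 2 (-0.75, adjusted P = 0.0698). Its co-receptor Klb had 55 to 83 counts under normal glucose and 71 to 113 under high glucose, without a called change (adjusted P = 0.246), and Kl, which encodes the co-receptor of FGF23, had at most 5.

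Fgfr1 carried most of the receptor mRNA. It encodes the kinase receptor that is typical of mesenchymal cells, and lies on chromosome 8 from 25513654 to 25575718 on the plus strand. It had 499.0, 495.4 and 527.6 CPM under normal glucose and 551.3, 546.4 and 549.1 under high glucose. The groups did not overlap and the high glucose samples lay close together. The difference was 8.20%, a log2 fold change of 0.11 with a 95% interval of 0.0040 to 0.22, and it did not pass after adjustment (adjusted P = 0.107). Under library size scaling, which moved the median of all genes by -0.11 on the log2 scale, its log2 fold change was -0.0010, and with GC and length trends removed it was 0.040.

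Fgfr2 rose from a low level. It encodes a receptor of which one splice form binds FGF7 and FGF10, and is annotated on chromosome 7 from 130162451 to 133123350 on the minus strand. It had 11.5, 11.6 and 11.7 CPM under normal glucose and 17.1, 17.5 and 16.9 under high glucose. The spread within each group was under 2% of its mean, and the groups were far apart relative to it. The change was 47.6%, a log2 fold change of 0.56 ± 0.057 (SE; adjusted P = 4.16e-05), with a range of 0.45 to 0.56 over the alternatives. Its annotated exons share 314 bp with Ctbp2 on the same strand. At the mean exon coverage of Ctbp2, which had 4902 to 6550 counts per sample and a log2 fold change of 0.22 (adjusted P = 0.00837), that stretch would hold 17.2 to 18.2% of the Fgfr2 counts under normal glucose and 13.6 to 14.4% under high glucose. The epithelial marker Epcam had at most 12 counts per sample, and Cdh1 at most 3.

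Fgfr3, a receptor known for restraining growth of cartilage, was the least abundant of the 10 per kb. It lies on chromosome 5 from 33721674 to 33737068 on the plus strand. It had 205, 182 and 204 counts under normal glucose and 178, 127 and 143 under high glucose. On the CPM scale the lowest normal glucose value was 1.28 and the highest high glucose value 1.255, a narrow gap. The log2 fold change was -0.40 with a 95% interval of -0.71 to -0.091 (adjusted P = 0.0518). It passed the threshold in 8 of 17 alternative fits, including the one without normal glucose replicate 2 (-0.52, adjusted P = 0.0196), and kept its sign in all of them.

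Fgfrl1, the receptor without a kinase domain, showed the smallest adjusted P value of the 10 genes. It lies on chromosome 5 from 108692382 to 108706924 on the plus strand, the strand and chromosome that also hold Fgfr3. It had 57.1, 62.0 and 65.2 CPM under normal glucose and 97.0, 97.6 and 97.3 under high glucose. No high glucose sample came near the normal glucose range. The change was 58.4%, a log2 fold change of 0.66 ± 0.058 (SE; adjusted P = 1.48e-05), within 0.55 to 0.70 over the alternatives. Adjusted P values of the 10 genes refer to all 19015 tested genes. An exact permutation test (two-sided) of single genes gave P = 0.1 for each of the 8 genes whose groups did not overlap, the smallest value that 3 samples against 3 allow, 0.9 for Fgf7 and 0.8 for Fgf10.

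The make-up of the receptor mRNA moved from Fgfr1 toward Fgfrl1. Of the summed CPM per kb of the 4 receptors, Fgfr1 held 68.7% ± 0.960 under normal glucose and 60.2% ± 0.178 under high glucose (SD, n = 3). Fgfrl1 held 29.5% ± 1.01 and 37.9% ± 0.165, and no sample of one group reached the other. Fgfr2 held 1.503% ± 0.0438 and 1.80% ± 0.0324, and Fgfr3 0.281% ± 0.0366 and 0.172% ± 0.0155. Each of these shares differed without overlap (exact permutation test, two-sided, P = 0.1, which is the lower limit here, 4 shares compared). The sum itself was 74.8 ± 3.04 CPM per kb under normal glucose and 92.4 ± 0.140 under high glucose. With the longest annotated transcript as the length, the Fgfr1 share was 77.4% and 70.3% and the Fgfrl1 share 20.3% and 27.0%, so the level of a share depended on the length used while its direction did not.

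The make-up of the ligand mRNA changed by fewer percentage points. Fgf7 held 75.5% ± 0.806 of the summed CPM per kb of the 6 ligands under normal glucose and 73.5% ± 0.911 under high glucose, and Fgf10 14.3% ± 0.146 and 14.2% ± 0.500. Fgf2 went from 8.67% ± 0.631 to 10.6% ± 0.318 (SD, n = 3). Fgf1, Fgf18 and Fgf21 held at most 1.52% each in any sample. The summed ligand level was 142.7 ± 4.85 and 147.5 ± 8.35 CPM per kb (two-sided exact permutation test, P = 0.4).

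**Figure D3:**
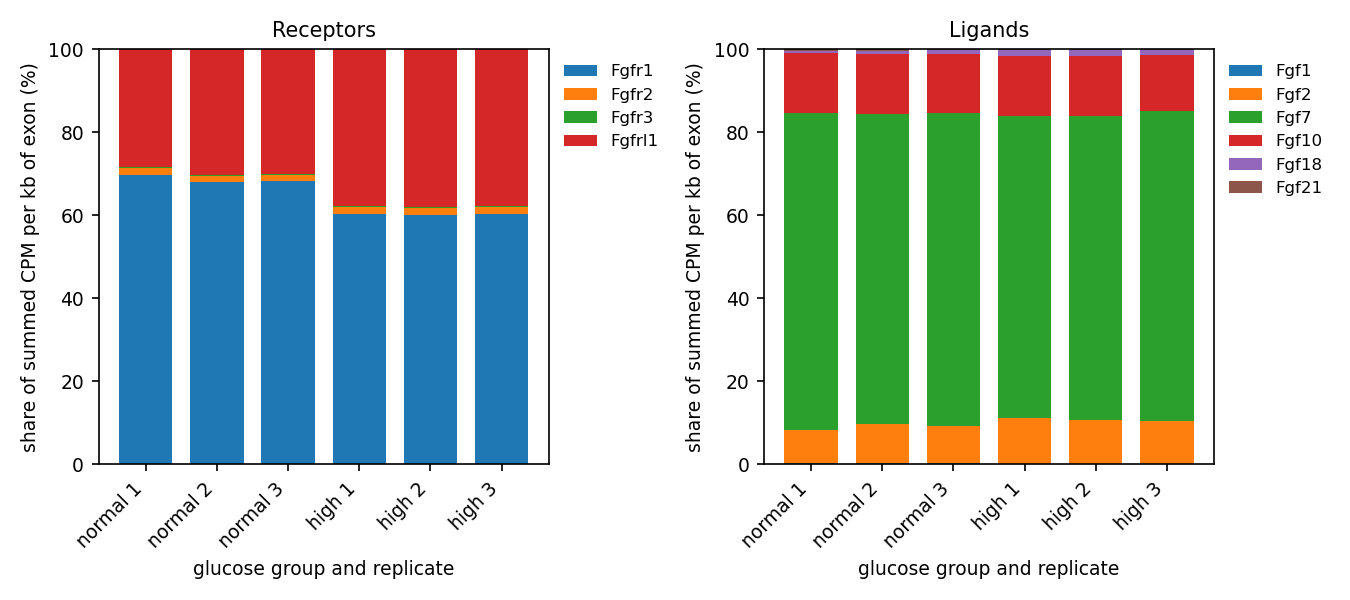
Share of each gene in the summed CPM per kb of exon, in percent, for the 4 receptors (left) and the 6 ligands (right), with 1 bar per sample. The Fgfrl1 share is 28.35 to 30.2% in the normal glucose samples and 37.7 to 38.0% in the high glucose samples, and Fgf7 holds 72.7 to 76.4% of the ligand level in every sample.

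The 3 called genes with the largest changes and sufficient abundance were compared with other genes by the root mean square distance between log2 CPM profiles over the 6 samples, each centred on its own mean. Tmem204, Ercc6l and Kntc1 were nearest to Fgf1, at distances of 0.070, 0.077 and 0.078. Dst, Dpyd and Lrp1 were nearest to Fgf18, at 0.081, 0.089 and 0.11. Psd4, Trib1 and Fbln1 were nearest to Fgfrl1, at 0.022, 0.028 and 0.034, and Fbln1 is also one of the 12 fibroblast markers. The distances are descriptions over 6 samples in 2 groups, so any gene with a like fold change comes near.

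The other FGF genes were examined as lists written from general knowledge. Of 12 further secreted ligands, 7 never exceeded 3 counts and 4 were tested. Fgf23, the bone hormone that lowers phosphate reabsorption in kidney, had 88, 105 and 99 counts under normal glucose and 570, 511 and 577 under high glucose. It rose from 0.739 ± 0.0352 to 4.23 ± 0.193 CPM (SD, n = 3), or by 2.52 ± 0.11 on the log2 scale (SE; adjusted P = 1.16e-07), more than any of the 10 listed genes. Fgf5, which ends the growth phase of the hair cycle, fell from 2.64 ± 0.0621 to 2.08 ± 0.151 CPM (adjusted P = 0.0280), and this call was lost without normal glucose replicate 3 (adjusted P = 0.0710), high glucose replicate 1 (adjusted P = 0.0614) or high glucose replicate 3 (adjusted P = 0.107). Fgf16 and Fgf22 did not pass (log2 fold changes 0.765 and -0.12, adjusted P = 0.0756 and 0.759). Of the 4 intracellular FGF homologous factors, which bind sodium channels and not receptors, Fgf11 rose by 0.53 on the log2 scale (adjusted P = 0.00174), and Fgf13, named after its values were seen because it lies below the level set for naming, had 109 to 169 counts under normal glucose and 63 to 82 under high glucose (log2 fold change -0.82, adjusted P = 0.00653). Fgfr4, the remaining kinase receptor, had 17 to 30 counts per sample and did not pass (adjusted P = 0.322).

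Heparan sulfate, which FGFs need for receptor binding, was represented by its core proteins and its enzymes. Of 14 core and binding proteins, 12 were tested, 7 were higher and 1 was lower, with a median log2 fold change of 0.21, beside 16.9% higher and 14.5% lower among all tested genes. Hspg2, which encodes perlecan, rose from 545.3 ± 69.2 to 957.5 ± 68.3 CPM (adjusted P = 7.72e-05), and Gpc6, a glypican, from 22.4 ± 6.07 to 42.7 ± 5.30 CPM (SD, n = 3; adjusted P = 0.00193). Agrn and Gpc3 rose by 0.43 and 0.42 on the log2 scale, while Gpc4 fell by 0.22 on that scale (adjusted P = 0.00581). Of 19 synthesis and editing genes, 9 were higher and 2 lower, with a median of 0.15, beside the same background. Sulf2, an extracellular enzyme that removes 6-O-sulfate, rose from 162.2 ± 13.6 to 295.4 ± 3.36 CPM (SD, n = 3; adjusted P = 5.08e-06), and Hs6st1, which adds 6-O-sulfate, rose by 0.40 on the log2 scale (adjusted P = 0.000370). Hs6st2, which catalyses the same step, fell by 0.57 on the log2 scale (adjusted P = 9.28e-05) and Ndst3, an N-sulfotransferase, by 0.69 (adjusted P = 0.000815). Hs3st1 and Hs3st3a1, which add 3-O-sulfate, rose by 0.65 and 0.36 on the log2 scale, the second losing its call in 5 of the 6 fits that left out a sample (all but the one without normal glucose replicate 3). Several core proteins are also matrix products of fibroblasts, and of the 12 fibroblast markers 10 were higher and 2, Thy1 and Twist2, lower over the same samples. Their part in these counts was not tested.

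Of 26 adaptor and relay genes, 8 were higher and 2 lower, with a median log2 fold change of 0.059. Among all tested genes, 16.9% were higher, 14.5% lower and 31.4% called in either direction. The share called higher lay above that background and the share called lower below it. Pik3r1, a regulatory subunit of PI3K, rose from 174.0 ± 8.14 to 278.2 ± 4.61 CPM (SD, n = 3; adjusted P = 6.79e-06). The kinase gene Braf rose by 0.46 on the log2 scale, and the docking protein gene Gab1 by 0.37. Nras and Map2k1 fell by 0.37 and 0.22 on the log2 scale, and Map2k1 lost its call without high glucose replicate 3 (adjusted P = 0.0508). Frs2, the adaptor named above, rose by 0.31 on the log2 scale (adjusted P = 0.0152).

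Inhibitors and modulators of FGF receptor and RAS signaling, and genes induced by it and by other receptors, were counted next. Of 17 such inhibitors and modulators, called feedback inhibitors in the plot of pathway lists, 9 were lower and 1, Nf1, was higher, with a median log2 fold change of -0.24, beside 14.5% lower among all tested genes. The call of Nf1 (0.23) was lost in every fit that left out a sample except the one without normal glucose replicate 2, with upper quartile (0.18) or library size scaling (0.11), without a filter (0.21) and with GC and length trends removed (0.041, adjusted P = 0.470). Dusp6, the ERK phosphatase, went from 28.7 ± 0.939 to 11.2 ± 0.678 CPM, and Spry4 from 48.0 ± 2.96 to 21.45 ± 1.29 CPM (SD, n = 3; adjusted P = 1.91e-07 and 7.69e-07). Dusp4 and Spry1 fell by 1.20 and 0.72 on the log2 scale. Of 13 transcriptional targets, 10 were lower and none higher, with a median of -0.53, and 3 did not pass, among them Egr1 with 0.045 (adjusted P = 0.694). Ccnd1, which encodes cyclin D1, fell from 167.7 ± 6.65 to 63.5 ± 1.42 CPM (SD, n = 3; adjusted P = 5.57e-08), and Egr3 by 0.63 on the log2 scale, a call lost without high glucose replicate 2 (adjusted P = 0.0517) or 3 (adjusted P = 0.0562). Over all lists other than the 10 genes, 27 genes were higher and 28 lower, beside 16.9% and 14.5% of all tested genes. These totals pool lists with medians above 0 and below it. The tested genes behind them were 4 other ligands, 4 homologous factors, 2 receptor and co-receptor genes, and 4 genes for release of leaderless FGFs. The rest were 12 core proteins, 19 synthesis and editing genes, 26 adaptor and relay genes, 17 inhibitors and modulators, and 13 targets. For the same lists, library size scaling gave 14 higher and 39 lower, and upper quartile scaling 17 and 30. Over all 19015 tested genes, library size scaling gave 1819 higher and 4884 lower. Upper quartile scaling gave 2622 and 3407, against 3212 and 2757 in the main fit. The counts of 9 lower inhibitors and 10 lower targets were 12 and 11 with library size scaling, which also raised the lower calls among all genes from 2757 to 4884.

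**Figure D4:**
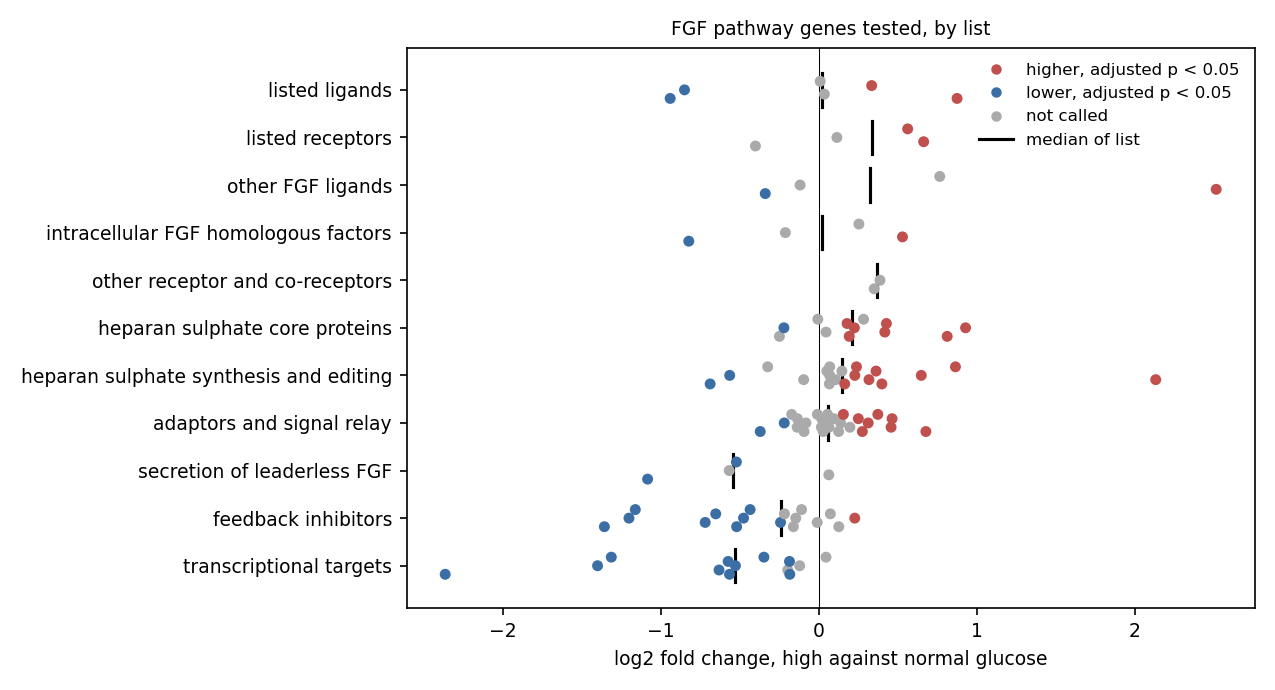
Log2 fold change, high against normal glucose, of every tested gene in each FGF pathway list, with the list median as a vertical line and colour for genes that passed an adjusted P value of 0.05. Transcriptional targets lie mostly left of 0 with a median of -0.53, heparan sulfate lists have medians of 0.21 and 0.15, and Fgf23 is the point at 2.52.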

How the data were processed

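Bulk RNA sequencing of 6 cultures was analysed, 3 per glucose group. Per the labels and methods, the authors used Trimmomatic for trimming, HISAT2 for alignment (GRCm38) and StringTie for counting, and deposited unnormalized counts per Ensembl gene. These counts may include both reads of a pair, so halved counts were an alternative. Tool versions and the annotation release are not given in the sources used here. The methods name a QIAGEN kit and an Illumina HiSeq, whereas the labels name TRIzol and DNBSeq. Symbols, positions and exon lengths came from GENCODE M21 for GRCm38. Promoter sequences came from RefSeq windows (GRCm38.p6), which were used for 8 of the 10 genes, without Fgf1 and Fgfr1. The 260 identifiers without a gene model held 0.00694% of counts.

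Counts were filtered with filterByExpr (minimum count 10, minimum total count 15), TMM-normalized and compared with the quasi-likelihood test in edgeR 4.0.16 under R 4.3.3, with Benjamini-Hochberg adjustment over 19015 genes and a threshold of 0.05. Standard errors came from the test statistic and intervals are 95%. A floor of 3 counts equalled 0.0211 to 0.0258 CPM, and such limits cover counting error only. Single values used exact permutation tests. The fit was tested on simulated data.

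All 10 listed genes were described. Of the other lists, at most 4 called genes per direction with the largest changes and a mean log2 CPM no lower than 0 were named. Frs2, Egr1, Klb, Kl, Fgf16, Fgf22, Fgfr4, Fgf13 and Tec fall outside this rule and were added after their values were seen. Some list members are not reported here by name. The genes and lists were chosen with earlier results of these data known. Alternatives were other normalizations, filters, a stricter threshold, DESeq2 1.42.0, the likelihood ratio test, halved counts, removal of GC and length trends (mgcv 1.9.3), the replicate block and leaving out each sample.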

Additional observations from a re-analysis of the deposited data

How the results depend on the processing

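A result counted as unchanged if sign and call stayed, counts stayed within 1.5 times, and receptor shares moved by less than the larger group SD. Of 18 results, 8 were unchanged in every alternative run for them. The changes of Fgf1, Fgf2, Fgf18, Fgfr2 and Fgfrl1 and the 4 genes called higher are among these. Library size scaling moved the all-gene median by -0.11 on the log2 scale, with 1819 higher and 4884 lower genes against 3212 and 2757, the largest such shift among the settings. The cause of the changes below was not tested.

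Fgf7 changed sign at -0.0040 with RLE size factors and with DESeq2, -0.035 with upper quartile scaling, -0.11 with library size alone, -0.012 without a filter, -0.0092 with at least 1 CPM in 3 samples and -0.012 with halved counts, and lay between -0.047 and 0.036 with each sample left out. Fgf10 was -0.0090 and -0.082 with upper quartile and library size scaling, and between -0.041 and 0.049 with each sample left out. Fgfr1 was -0.0010 with library size alone. None of these values passed the threshold. Fgfr3 passed at -0.41 with RLE size factors, -0.445 with upper quartile scaling, -0.52 with library size alone, -0.42 with at least 1 CPM in 3 samples, -0.41 with halved counts, -0.46 with the GC and length trend removed and -0.45 with that trend removed and the replicate block, and lay between -0.52 and -0.35 with each sample left out.

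The replicate numbers are shared by both groups. For replicates 1, 2 and 3, the deviations of the normal and high glucose samples correlated at -0.025, 0.0038 and 0.013 over 19015 genes. Thus 1 of 3 such correlations was negative, and no pairing was visible in them. The labels do not say whether same-numbered cultures shared a preparation, and such small values from 3 samples per group cannot exclude it. With the replicate block, Fgf21 stood at -0.86 (adjusted p = 0.0514), and -0.77 with the GC and length trend also removed (adjusted p = 0.0662), against a range of 0.00611 to 0.0800 over its alternatives. It lay between -1.09 and -0.75 with each sample left out, and could not be tested with at least 1 CPM in 3 samples. The number of listed genes called lower, 2, was 1 with the replicate block and at an adjusted p under 0.01, and 1 to 2 with each sample left out, and 3, with Fgfr3 added, under RLE, upper quartile and library size scaling, halved counts and the GC and length trend removed. With at least 1 CPM in 3 samples, without normal glucose replicate 2, or with the trend removed and the block, the 2 were Fgf1 and Fgfr3. The block changed the call of no other listed gene. Outside the 10, it ended the calls of Fgf5 (-0.34, adjusted p = 0.0537; -0.30 and 0.0678 with the trend also removed) and Hs3st3a1 (0.37, adjusted p = 0.0555), and the latter was also lost with upper quartile (0.32) and library size scaling (0.25) and without a filter (0.34).

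The 27 other pathway genes called higher became 17 with upper quartile scaling, 14 with library size alone, 16 without a filter and 14 at an adjusted p under 0.01. With each sample left out they ranged from 14 to 23, with 14, 15 and 16 when high glucose replicate 1, 2 or 3 was absent. Higher calls over all genes also fell from 3212, to 2622 with upper quartile scaling and 1819 with library size alone. Without a filter they were 2334 of 31922 tested genes. They were 2010, 2359 and 1988 without high glucose replicate 1, 2 or 3. With the longest transcript as length, the receptor shares changed by -7.09 percentage points for Fgfr1, 0.482 for Fgfr2 and 6.705 for Fgfrl1, against -8.53, 0.292 and 8.35. Counts under about 100 per sample, as for Fgf21, limit what could be detected.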
